A study of Mus musculus with 7 samples.

Results

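The promoters of 10 mouse genes of amino acid transport and of the response to amino acid shortage were examined in ChIP-seq data of embryonic stem cells (ESCs): *Slc7a1*, *Slc7a5*, *Slc7a11*, *Slc3a2*, *Slc38a2*, *Slc1a4*, *Slc1a5*, *Xpot*, *Asns* and *Atf4*. They were taken by gene symbol and make up 10 of the 17689 gene symbols and 12 of the 36733 rows of the files, because *Slc7a1* and *Slc3a2* each have 2 transcription start sites (TSSs). The set was assembled around *Slc7a1* and *Xpot*, which were picked because they had among the largest losses of Tip60 and p400 signal upon knockdown (KD) of Hdac6. Their values in those comparisons are therefore a description and carry no test.

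Amino acids cross the plasma membrane through carriers of the solute carrier families, and cells adjust the supply by making more or fewer of these carriers. When amino acids run short, uncharged tRNA activates the kinase Gcn2, which phosphorylates the translation factor eIF2. General translation then slows while the mRNA of *Atf4*, a bZIP transcription factor, is translated more. Atf4 pairs with C/EBP proteins at C/EBP-ATF response elements (CAREs) and activates genes for amino acid import and synthesis, many of the genes studied here among them. Tip60 (Kat5) is an acetyltransferase and p400 (Ep400) a nucleosome remodeler, and both are subunits of the Tip60-p400 complex. Hdac6 is a class II deacetylase, best known as a cytoplasmic enzyme that acts on tubulin.

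All 7 samples came from E14 mouse ESCs grown without feeders in medium with serum and LIF. Tip60 was pulled down with the Flag antibody M2 from Tip60-H3F cells upon GFP KD, the control, and upon Hdac6 KD, and Hdac6 from Hdac6-H3F cells upon GFP KD and Tip60 KD. In these lines an H3F tag, a run of histidines followed by Flag epitopes, was placed at the end of the endogenous gene, on 1 copy in the case of *Tip60*. The same antibody was used on wild-type cells without a tag (the untagged control), and an antibody against endogenous p400 on cells for which the labels name no tag, upon GFP KD and Hdac6 KD. The knockdowns were made with lentivirus and cells were collected 72 hr after infection. Each condition has 1 sample. For the sample titled as Tip60 KD with Hdac6 ChIP, the genotype label names Hdac6 KD instead. It was grouped by its title, so every value of that library holds for the library labelled Tip60 KD. ChIP-seq of promoters checks neither the knockdowns nor the cell type.

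With 1 sample per condition, no test over samples was possible, and what a knockdown did and how single cultures or libraries happened to vary cannot be told apart. The deposited coverage is a whole multiple of the value of 1 read, so reads could be recovered. The libraries were normalized to between 9226710 and 31375600 reads, and a row held a median of 8 to 21 reads within 500 bp of its TSS, which limits the size of difference that a single promoter can show. Intervals given here are 95% intervals of read counting (exact Poisson for reads, exact conditional binomial for ratios) and cover counting error only. Log2 ratios compare reads per normalizing read after adding 0.5 reads to each number, and a promoter was called lower or higher when its ratio passed 1.5-fold. In the Tip60 library upon Hdac6 KD, 30.9% of isolated stacks of coverage held more than 1 read, against 17.7% upon GFP KD. In the p400 pair these shares were 8.21% and 7.90%. The part of such repeated reads in the Tip60 differences was not tested beyond the count with each largest stack taken once, given with *Slc7a1* and *Atf4*.

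The sequences upstream of *Slc7a1* and *Xpot* are shown because these genes gave the set its rule. Both are 250 bases that end at the base before the most upstream annotated start, read 5′ to 3′ on the minus strand of mm9, at chr5:149211481-149211730 and chr10:121063373-121063622. Capitals mark matches to an E-box (CACGTG) and to the core of the antioxidant response element (TGACNNNGC, either strand).
Slc7a1: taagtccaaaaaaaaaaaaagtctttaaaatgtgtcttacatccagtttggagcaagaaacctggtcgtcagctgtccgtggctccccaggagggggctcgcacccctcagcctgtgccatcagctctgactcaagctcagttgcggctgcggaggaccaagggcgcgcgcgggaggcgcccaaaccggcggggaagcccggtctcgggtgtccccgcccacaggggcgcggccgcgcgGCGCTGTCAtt
Xpot: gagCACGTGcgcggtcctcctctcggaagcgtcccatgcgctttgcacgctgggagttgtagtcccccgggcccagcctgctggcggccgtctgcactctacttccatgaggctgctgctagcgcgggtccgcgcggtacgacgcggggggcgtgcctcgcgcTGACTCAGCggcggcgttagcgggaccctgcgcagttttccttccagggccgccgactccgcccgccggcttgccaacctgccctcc
The *Slc7a1* stretch holds 62.4% G and C and 21 CpG dinucleotides, and the *Xpot* stretch 71.2% and 31. The E-box core lay within 500 bp of the TSS in 4 of the 12 rows, against 17.1% of the 22704 rows with a RefSeq identifier, and the antioxidant core in 6 of 12, against 34.1%.

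The core of a CARE (TGATGNAA, either strand) lay within 500 bp of the TSS in 5 of the 12 rows, against 10.0% of RefSeq rows. These sites are shown, with the core in capitals and 30 bases each, because Atf4 and the targets it is known to bind through such elements are both in the set. All are read on the minus strand of mm9, the strand of these genes. In *Xpot*, *Slc1a4* and the second *Slc7a11* site the core runs against the gene. No match to any of the 3 motifs overlapped a match to another.
Asns (chr6:7643214-7643243): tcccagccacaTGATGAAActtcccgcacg
Slc7a11, first site (chr3:50247583-50247612): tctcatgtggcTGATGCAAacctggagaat
Slc7a11, second site (chr3:50247564-50247593): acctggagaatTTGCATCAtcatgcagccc
Slc1a4 (chr11:20232702-20232731): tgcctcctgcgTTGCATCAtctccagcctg
Slc7a1, first site (chr5:149211396-149211425): cggcgcgcggcTGATGAAAccggctcggat
Slc7a1, second site (chr5:149211065-149211094): ggcgtggtgcaTGATGCAAcagcgggaggg
Xpot (chr10:121063023-121063052): gttgccgggtgTTTCATCAcccgagtggcc
The sites began 50 bp upstream of the TSS in *Asns*, 66 and 47 bp upstream in *Slc7a11*, 46 bp upstream in *Slc1a4*, 41 and 372 bp downstream in *Slc7a1* and 331 bp downstream in *Xpot*. In the annotation those of *Asns* and *Slc1a4* and the first of *Slc7a1* overlap an exon of the gene, and the others overlap no exon. The other rows, *Atf4* among them, had no match to these letters in this window. A match is a description of the sequence and not a measured site.

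The first question was how much Tip60, Hdac6 and p400 signal the promoters carried in the control knockdown. Tip60 signal stood highest at *Slc7a1* and *Xpot*. At the upstream start of *Slc7a1* (RefSeq NM_007513, chromosome 5, TSS at 149211455, minus strand), which encodes the arginine and lysine transporter Cat1, Tip60 had 101 reads (95% interval 82.3 to 123) and the untagged control 9 (4.12 to 17.1). Per normalizing read this is a ratio of 12.2 over the untagged control. Of all rows, 99.9% had a lower ratio. At *Xpot* (NM_001081056, chromosome 10, TSS at 121063372, minus strand), which encodes the exportin that carries tRNA out of the nucleus, Tip60 had 77 reads (60.8 to 96.2), the untagged control 11 (5.49 to 19.7), and the ratio was 7.59.

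*Slc38a2*, which encodes the sodium-coupled transporter Snat2 for small neutral amino acids, had the fewest untagged reads of the set. Its Tip60 reads numbered 40 and its untagged reads 4, a ratio of 10.8. *Slc1a4*, a neutral amino acid exchanger, had 40 and 11 reads and a ratio of 3.94. Of the 10 genes, 8 had Tip60 signal at least 1.5-fold above the untagged control, against a background of 28.5% of all rows and of 63.8% of the 5634 rows with 20 or more Tip60 reads. The members' median log2 ratio was 1.07, and that of all rows 0.12. Below the threshold were *Slc1a5*, the glutamine transporter Asct2, with 21 and 17 reads, and *Atf4*, with 20 Tip60 and 27 untagged reads and a ratio of 0.803. The Tip60 signal at *Atf4* upon GFP KD was thus not above the control, and its 27 untagged reads exceeded the number in 98.6% of rows.

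Hdac6 signal upon GFP KD ranged over the 12 rows from 6 reads at the downstream start of *Slc7a1* to 39 at *Atf4*, and with 1 row per gene the lowest were *Slc7a11* and *Slc3a2* with 9. *Xpot* and the upstream start of *Slc7a1* had 25 each. Per normalizing read, 7 of the 10 genes exceeded the untagged control 1.5-fold, against 58.8% of all rows and 98.9% of the 4687 rows with 20 or more Hdac6 reads, with a median log2 ratio of 1.69 for the members and 0.81 for all rows. *Slc38a2* had the highest ratio, 10.5, and *Asns*, asparagine synthetase, the lowest, 1.04. Both comparisons share the untagged sample, so a member with few untagged reads is high in both. The Tip60 reads upon GFP KD also enter the ratios by which *Slc7a1* and *Xpot* were picked.

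In the GFP KD cells p400 had 88 reads (70.6 to 108) at *Slc7a1*, 74 (58.1 to 92.9) at *Xpot*, 70 (54.6 to 88.4) at *Atf4*, 56 at *Slc1a4* and 55 at *Asns*. The other 5 genes lay between 19 reads at *Slc7a11* and 46 at the upstream start of *Slc3a2*. In this order of 5 genes, each gene's interval overlapped that of the next. The p400 libraries have no control of their own among the samples.

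**Figure D1:**
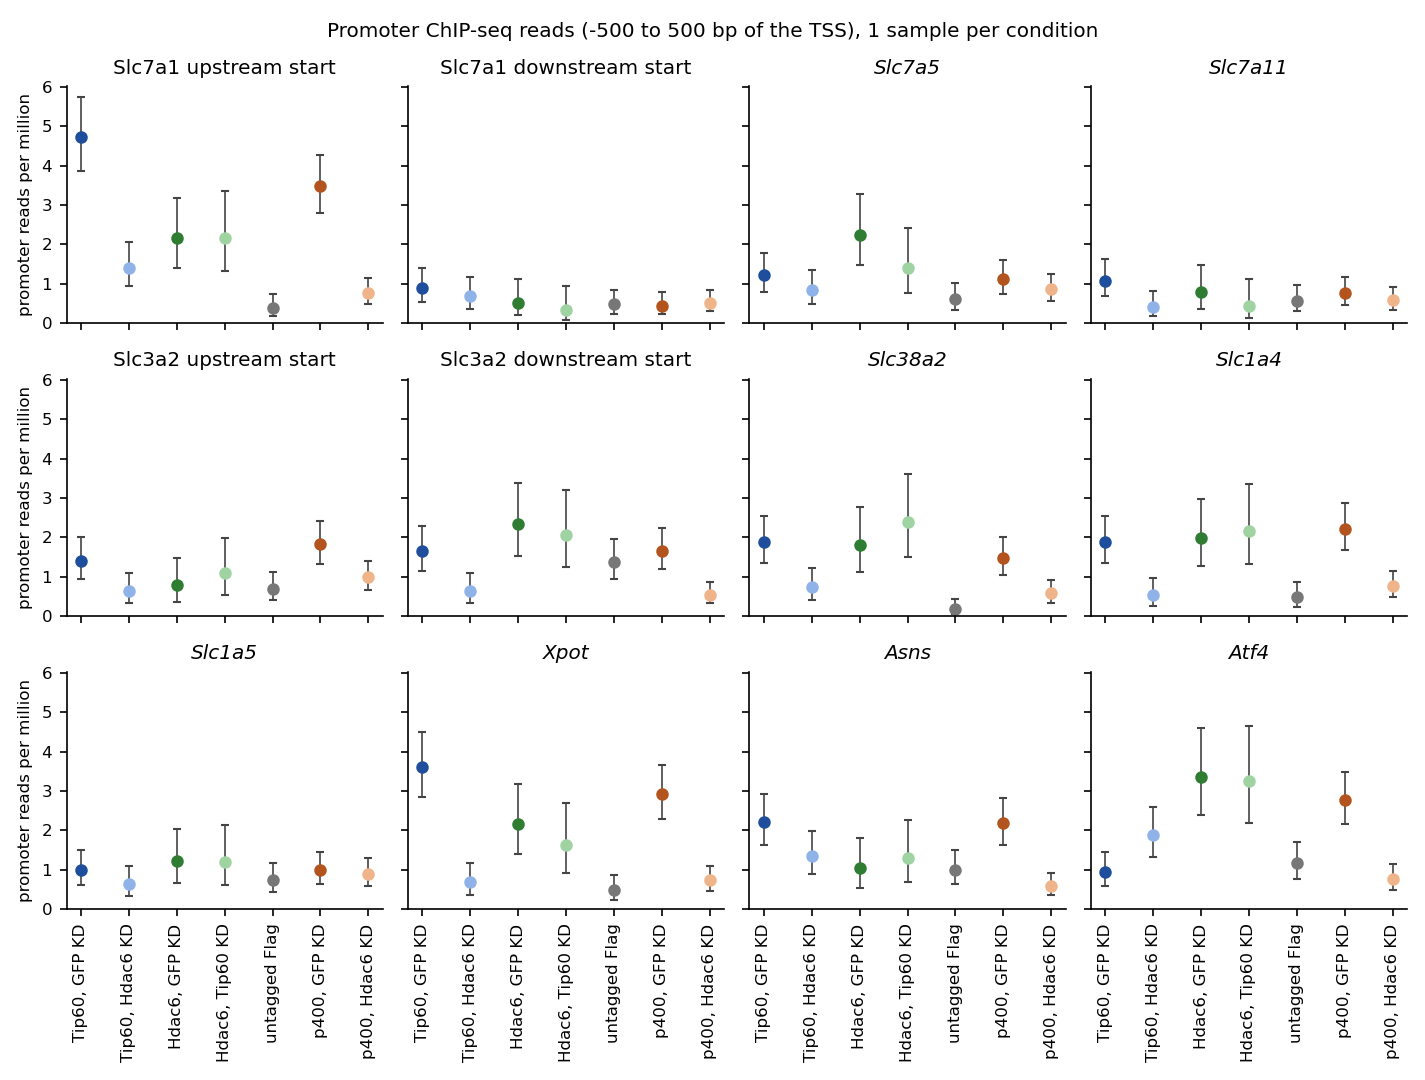
Promoter reads scaled to normalizing reads (RPM, y axis, -500 to 500 bp of the TSS) in each of the 7 samples (x axis) for the 12 rows of the 10 genes. Points are single samples and bars 95% Poisson intervals of the reads. The first and sixth points of *Slc7a1* (4.73 and 3.48) and *Xpot* (3.61 and 2.92) stand above the knockdown points beside them, and at *Atf4* the second point (1.88) stands above the first (0.937).

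The second question was how Tip60 signal differed upon Hdac6 KD. Tip60 reads at the upstream start of *Slc7a1* numbered 101 upon GFP KD and 27 upon Hdac6 KD, 3.36-fold lower per normalizing read (log2 ratio -1.73, -2.42 to -1.12). Of all rows 5.11% had a lower ratio, and 7.33% of those with 20 or more reads upon GFP KD. At *Xpot* they numbered 77 and 13, 5.32-fold lower (-2.37, -3.38 to -1.55), with 1.59% and 1.47% of these rows lower. RPM are the reads of a promoter scaled to the normalizing reads of its library. At *Slc7a1* they were 4.73 (3.86 to 5.75) upon GFP KD and 1.41 (0.929 to 2.05) upon Hdac6 KD. Both genes were picked for their falls, so the distance between such intervals is no test.

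Among the other transporters the differences were of unequal size. *Slc1a4* (NM_018861, chromosome 11, TSS at 20232674, minus strand) had 40 and 10 Tip60 reads (log2 ratio -1.79, -3.01 to -0.82). *Slc38a2* (NM_175121, chromosome 15, TSS at 96530129, minus strand) had 40 and 14 (-1.33, -2.35 to -0.45). *Slc7a11* (NM_011990, chromosome 3, TSS at 50247535, minus strand), the cystine-glutamate exchanger xCT, had 23 and 8 (-1.31, -2.74 to -0.16). All of these intervals stay below 0. *Slc3a2* (NM_008577, chromosome 19, TSSs at 8797859 and 8788362, minus strand) encodes the heavy chain that the Slc7a5 and Slc7a11 proteins need to reach the cell surface, and both its starts had fewer reads: 30 and 12 upstream (-1.13, -2.27 to -0.16) and 35 and 12 downstream (-1.35, -2.47 to -0.41). At the downstream start the untagged control had 32 reads, more than 99.6% of rows. Tip60 upon GFP KD was only 1.19-fold of that control (log2 ratio 0.24, -0.49 to 0.98), so its signal there was not clearly above background. The interval of *Slc7a5* (NM_011404, chromosome 8, TSS at 124431572, minus strand), the large neutral amino acid transporter Lat1, with 26 and 16 reads, includes 0 (-0.53, -1.54 to 0.41). So do those of *Slc1a5* (NM_009201, chromosome 7, TSS at 17366695, plus strand), with 21 and 12 reads (-0.63, -1.81 to 0.44), and of *Asns* (NM_012055, chromosome 6, TSS at 7643182, minus strand), with 47 and 26 reads (-0.69, -1.45 to 0.02).

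In all, 8 of the 10 genes were lower by 1.5-fold and 1 was higher. Over all rows these shares were 32.6% and 15.5%. Among the 5634 rows with 20 or more reads upon GFP KD, to which all 10 genes belong, they were 53.2% and 0.941%. Those rows were picked by the denominator of the ratio, which lowers their ratios. The members' median log2 ratio was -1.22, against -0.22 over all rows and -0.64 over the rows with 20 or more reads. The libraries differed in how they covered GC-rich DNA. In windows 1500 to 2000 bp from a row's TSS, with no TSS within 1000 bp of the window, the ratio of the Hdac6 KD to the GFP KD library went from 1.12 under 35% GC to 0.674 at 65% and above (189 windows), and the members' promoters have a median of 60.8% GC against 52.9% over all rows. Divided by the ratio of windows of equal GC content, the median was -1.01, against 0.02 over all rows, and 6 genes were lower by 1.5-fold, against 23.2% of all rows and 34.5% of those with 20 or more reads. *Slc7a1* was then at -1.48 and *Xpot* at -1.80, while *Slc7a5* was at 0.04.

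The third question was the same for p400, measured with another antibody in cells for which no tag is named. Reads at the upstream start of *Slc7a1* numbered 88 upon GFP KD and 24 upon Hdac6 KD, 4.55-fold lower (log2 ratio -2.16, -2.90 to -1.52). Of the rows in the p400 files, 0.361% had a lower ratio. *Xpot* had 74 and 23 reads, 3.99-fold lower (-1.97, -2.74 to -1.30). *Asns* had 55 and 18, 3.79-fold lower (-1.89, -2.78 to -1.13), and *Atf4* 70 and 24, 3.62-fold lower (-1.83, -2.59 to -1.17). With 1 row per gene, these 4 had the lowest p400 ratios of the 10, so their likeness in p400, with overlapping intervals, follows from that order. Their Tip60 ratios ranged from -2.37 at *Xpot* to 0.99 at *Atf4*, where Tip60 upon GFP KD was not above the untagged control. The Tip60 interval of *Slc7a1* overlapped those of *Xpot* and *Asns* but not that of *Atf4*.

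*Slc1a4* (56 and 24 reads, log2 ratio -1.52, -2.29 to -0.82) and *Slc38a2* (37 and 18, -1.33, -2.25 to -0.50) were lower in p400 as in Tip60. A start on the other strand without a RefSeq identifier lies 118 bp from the upstream start of *Slc3a2*, and one of *BC048644* 161 bp from that of *Slc7a5*, and reads of neighbouring starts cannot be told apart. At *Slc3a2* the starts differed more: 46 and 31 reads upstream (-0.87, -1.59 to -0.19) and 42 and 17 downstream (-1.59, -2.52 to -0.77), with overlapping intervals. The intervals of 3 genes include 0, those of *Slc7a11* with 19 and 18 reads (-0.39, -1.40 to 0.62), *Slc7a5* with 28 and 27 (-0.36, -1.18 to 0.45) and *Slc1a5* with 25 and 28 (-0.15, -0.98 to 0.69). In normalizing reads the p400 library upon Hdac6 KD was the deeper of the pair, so equal reads are a lower level there.

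For p400, 7 of the 10 genes were lower by 1.5-fold and 0 higher. The p400 files hold the 22704 rows with a RefSeq identifier, and the shares were 43.8% and 7.79% of all of them, and 67.0% and 0.0411% of the 12172 rows with 20 or more reads upon GFP KD. The members' median log2 ratio was -1.42, against -0.48 over all rows and -0.79 over the rows with 20 or more reads. The GC dependence of this pair had another shape, with ratios of 0.752 under 35% GC, 1.11 between 55 and 57.5% and 0.701 at 65% and above (138 windows). After the correction for GC content the median was -1.22, against -0.37 over all rows, 7 genes were lower, against 37.8% of all rows and 58.3% of those with 20 or more reads, and *Slc7a1* and *Xpot* were at -2.16 and -1.46.

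**Figure D2:**
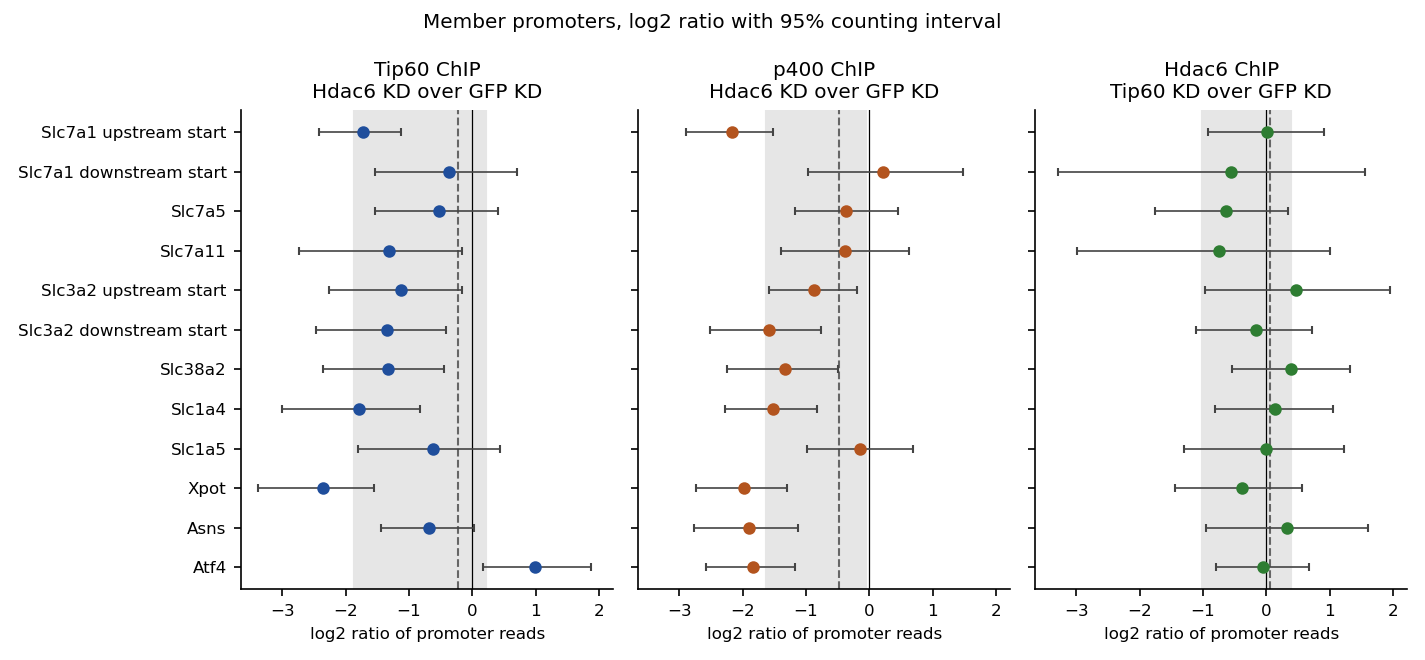
Log2 ratio of promoter reads (x axis) for the 12 rows of the 10 genes (y axis) in 3 comparisons. Points are single pairs of samples with 95% counting intervals, the dashed line is the median of all rows and the grey band the 5th to 95th percentile of rows with 20 or more reads upon GFP KD. *Xpot* (-2.37 and -1.97) lies left of the grey band for Tip60 and p400 and *Slc7a1* (-1.73 and -2.16) left of it for p400 only. *Asns* (-1.89) and *Atf4* (-1.83) also lie left of the p400 band. *Atf4* lies right of 0 for Tip60 only (0.99), and there right of the band, and the Hdac6 points scatter around 0.

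The 2 starts of *Slc7a1* had unlike values. At the downstream start (TSS at 149204391) Tip60 had 19 and 13 reads (log2 ratio -0.38, -1.53 to 0.70) and p400 had 11 and 16 (0.21, -0.97 to 1.48), while Hdac6 had 6 and 3 reads and the untagged control 11. The Tip60 reads there upon GFP KD exceeded those of 84.3% of rows, and the p400 reads those of 19.1%. Both intervals include 0 and also reach well below it, so a fall at the downstream start was neither shown nor excluded. The larger fall was at the upstream start, in a gene picked for its fall. The upstream start has 62.4% GC around it against 43.3% at the downstream one. The difference between the starts was not tested. Rows of the p400 files carry no position and were matched by identifier and file order. Where overlapping rows allowed a test of that order, 11 of 11 matched.

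At *Slc7a1* and *Xpot* the signal upon GFP KD was highest downstream of the TSS. The smoothed Tip60 maximum at *Slc7a1* was 3.30 ppm at 320 bp upon GFP KD, and the p400 maximum 2.06 ppm at the same 320 bp. Hdac6 was highest at 380 bp. At *Xpot* the maxima of Tip60 (1.69 ppm) and p400 (1.53 ppm) were both at 300 bp and that of Hdac6 at 240 bp. Upon Hdac6 KD the highest p400 value within 1000 bp of the TSS was 0.38 ppm at *Slc7a1*, at 860 bp, and 0.34 ppm at *Xpot*, at -260 bp. The highest Tip60 values were then 0.82 ppm at 140 bp and 0.54 ppm at -1000 bp.

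Both sides of the TSS had fewer reads upon Hdac6 KD. From -100 to 300 bp, Tip60 reads at *Slc7a1* numbered 51 and 17 and p400 reads 45 and 10, whereas from -600 to -200 bp they numbered 9 and 4 and 11 and 7. At *Xpot* the downstream numbers were 38 and 5 for Tip60 and 38 and 8 for p400, and the upstream numbers 16 and 6, and 15 and 9. The upstream numbers are small and have no interval here. Over all rows the median log2 ratio in the upstream window was itself -0.13 in Tip60 and -0.42 in p400, and in the downstream window -0.29 and -0.49. At *Asns* the Tip60 maximum, at 80 bp, was in the same place in both samples. It reached 1.27 ppm in the control and 0.88 ppm upon Hdac6 KD. The p400 maximum at *Asns* was 1.16 ppm at 60 bp in the control and 0.24 ppm at -500 bp upon Hdac6 KD. The coverage of Tip60 at *Slc7a1* upon GFP KD stepped by 13 reads between neighbouring positions, the largest step in the set, against 5 upon Hdac6 KD. With the largest step in each sample counted as 1 read, the Tip60 log2 ratio of *Slc7a1* was -1.77 and the p400 ratio -2.28.

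**Figure D3:**
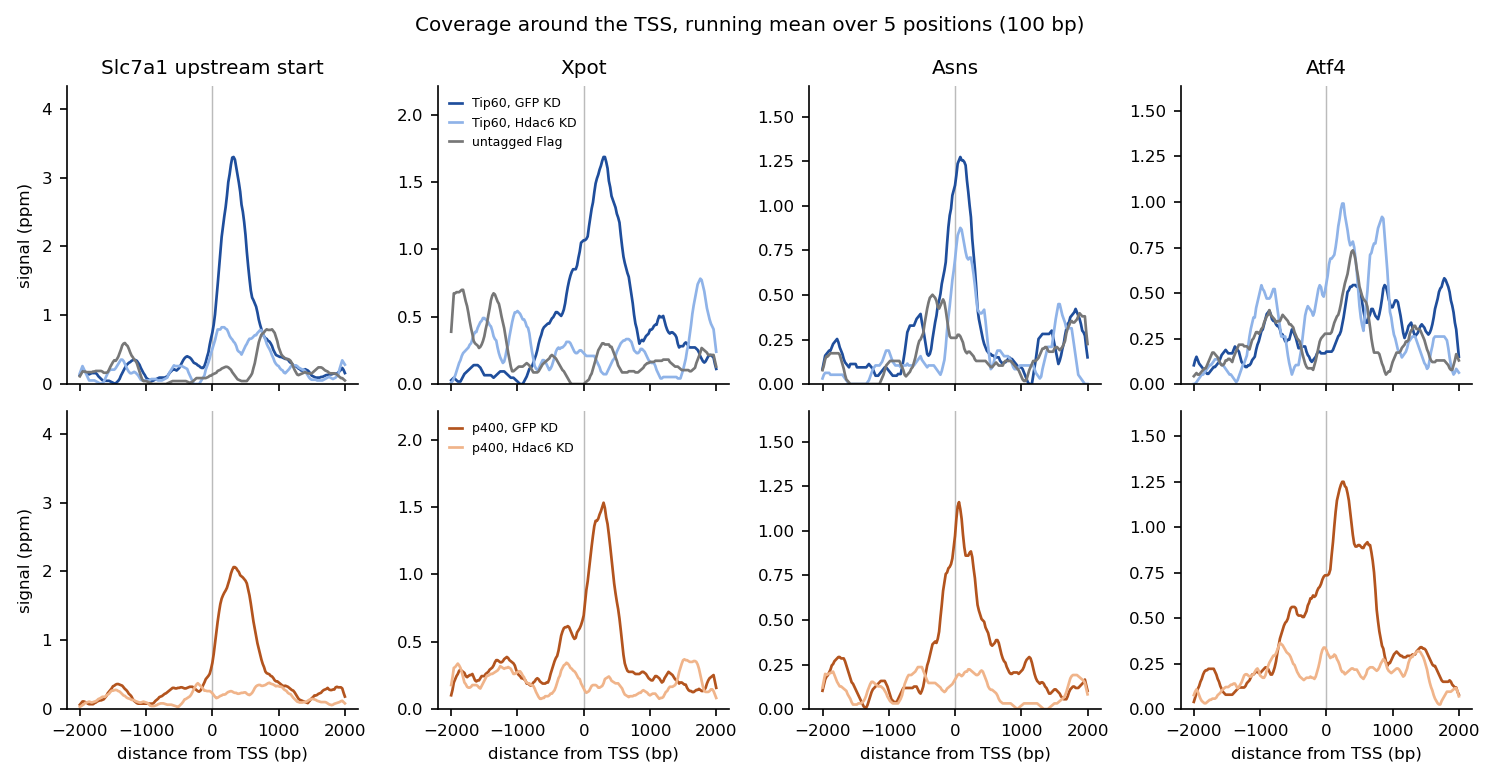
Signal (y axis, ppm, running mean over 100 bp) against distance from the TSS (x axis, bp) at *Slc7a1* (upstream start), *Xpot*, *Asns* and *Atf4*, with Tip60 and the untagged control in the upper row and p400 in the lower row. The GFP KD peaks at *Slc7a1* (320 bp) and *Xpot* (300 bp) are far lower upon Hdac6 KD, a Tip60 peak at 80 bp is seen at *Asns* in both samples (1.27 and 0.88 ppm), and at *Atf4* Tip60 upon Hdac6 KD (0.99 ppm at 240 bp) is above GFP KD (0.54 ppm).

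*Atf4* (NM_009716, chromosome 15, TSS at 80085614, plus strand) departed from the other 9 genes in Tip60. Its Tip60 reads numbered 20 upon GFP KD and 36 upon Hdac6 KD (log2 ratio 0.99, 0.18 to 1.87). Of all rows 92.8% had a lower ratio, and 99.98% of those with 20 or more reads upon GFP KD. The p400 reads at the same promoter numbered 70 and 24 (log2 ratio -1.83). The untagged control, 27 reads or 1.17 RPM (0.769 to 1.70), lay between Tip60 upon GFP KD, 0.937 (0.572 to 1.45), and Tip60 upon Hdac6 KD, 1.88 (1.32 to 2.60), with an interval that overlapped both. Steps between neighbouring positions were of at most 4 reads in either Tip60 sample, and with the largest step counted as 1 read the Tip60 log2 ratio was 1.01. After the correction for GC content it was 1.24. From -100 to 300 bp Tip60 reads numbered 7 and 20, and from -600 to -200 bp 6 and 6. No test of the difference between the Tip60 and p400 ratios was possible with 1 sample each.

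The fourth question was whether Hdac6 signal at these promoters differed upon Tip60 KD, a comparison that the choice of genes did not use. The Hdac6 reads upon GFP KD and in the library labelled Tip60 KD numbered 25 and 20 at *Slc7a1*, 25 and 15 at *Xpot*, 39 and 30 at *Atf4*, 23 and 20 at *Slc1a4*, 21 and 22 at *Slc38a2*, and 12 and 12 at *Asns*. Per normalizing read the log2 ratio was 0.01 (-0.92 to 0.91) at *Slc7a1*, -0.39 (-1.44 to 0.57) at *Xpot* and -0.04 (-0.79 to 0.67) at *Atf4*. A difference within these intervals, nearly 2-fold either way at *Slc7a1*, was not detectable at this depth.

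Over the 10 genes the median log2 ratio was 0.00, against 0.06 over all rows. The 2 genes lower by 1.5-fold were *Slc7a5*, with 26 and 13 reads (-0.64, -1.76 to 0.34), and *Slc7a11*, with 9 and 4 (-0.75, -2.99 to 1.00), and 0 were higher, against 17.6% and 19.8% of all rows, and 21.0% and 1.79% of rows with 20 or more reads upon GFP KD. In the exact conditional binomial test of the reads of these 2 libraries, which compares the libraries and not the conditions, the lowest p among the members was 0.198, at *Slc7a5*, and every member's p was 1 after Benjamini-Hochberg adjustment over 36733 rows. Over all rows, 1 (0.00272%) passed an adjusted p of 0.05, and 1314 (3.58%), with 0 members among them, an unadjusted one. A p that misses the threshold at this depth does not show that the values were alike.

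Genes of the same pathways, in lists that hold none of the 10 and were drawn up with earlier results known, were counted by the same rule with 1 row per gene. Of 34 other genes of the amino acid and integrated stress response, 26 were lower by 1.5-fold in Tip60 upon Hdac6 KD and 25 in p400, with median log2 ratios of -0.92 and -1.24, and 1 and 0 were higher. Beside the background of 32.6% and 43.8% of all rows these are 76.5% and 73.5%. Among those with 20 or more reads upon GFP KD, 21 of 24 were lower in Tip60 and 24 of 30 in p400, beside 53.2% and 67.0%. *Ppp1r15b*, a regulatory subunit of the phosphatase that acts on eIF2, had 110 and 35 p400 reads (log2 ratio -1.95, -2.55 to -1.40) and 62 and 23 Tip60 reads (-1.26). *Psat1*, an enzyme of serine synthesis, had 98 and 32 p400 reads (-1.91, -2.55 to -1.34) and 90 and 27 Tip60 reads (-1.56). The highest p400 ratio among the list's genes with 10 or more reads was that of *Fgf21*, a secreted factor, with 21 and 28 reads (0.10, -0.76 to 0.99), where Tip60 had 25 and 6 (-1.82). With the GC correction 15 of the 34 were lower in Tip60 and 27 in p400, beside 23.2% and 37.8% of all rows. Of rows with 20 or more reads upon GFP KD, 34.5% and 58.3% were then lower.

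The other amino acid transporters gave a mixed picture. Of 42, 10 were lower and 9 higher by 1.5-fold in Tip60, with a median log2 ratio of -0.02, and 21 were lower and 3 higher in p400, with a median of -0.60. The shares lower were 23.8% beside 32.6% of all rows in Tip60 and 50.0% beside 43.8% in p400, and the background of rows higher was 15.5% and 7.79%. *Slc7a3*, a cationic amino acid transporter of the same family as *Slc7a1*, had 13 and 5 p400 reads (-1.61, -3.53 to -0.11) and 13 and 9 Tip60 reads (-0.35). *Slc38a1*, a relative of *Slc38a2*, had 43 and 20 p400 reads (-1.40, -2.26 to -0.62) and 43 and 35 Tip60 reads (-0.14). *Slc38a3* had 11 and 32 p400 reads (1.19, 0.20 to 2.37). With 20 or more reads upon GFP KD, 5 of 12 were lower in Tip60 (41.7% beside 53.2%) and 16 of 23 in p400 (69.6% beside 67.0%), so these shares are below or near the background. After the GC correction 6 of the 42 were lower and 15 higher in Tip60 (median 0.25, against 0.02 over all rows). In p400 19 were then lower and 2 higher (median -0.43, against -0.37). Of all rows 23.2% and 37.8% were lower after the correction, and the share higher is not given here. Over all 318 other genes with an Slc symbol, 120 were lower in Tip60 (37.7%) and 139 in p400 (43.7%), near the background. With the GC correction 72 and 119 of them were lower, beside the same 23.2% and 37.8% of all rows.

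All 13 genes of nuclear export and the Ran cycle, the pathway in which *Xpot* acts, were lower by 1.5-fold in p400 (median log2 ratio -1.24), and 7 were lower in Tip60 (-0.62). All 13 had 20 or more p400 reads upon GFP KD, and of such rows 67.0% were lower. In Tip60 the 53.8% lower compare with 32.6% of all rows and 53.2% of rows with 20 or more reads, so the share is near the latter. *Ran*, the GTPase that gives nuclear transport its direction, had 66 and 22 p400 reads (-1.87, -2.66 to -1.18) and 43 and 16 Tip60 reads (-1.24). *Rangap1*, which activates its GTP hydrolysis, had 62 and 24 p400 reads (-1.66, -2.42 to -0.98). *Nxf1*, the mRNA exporter, had the highest ratio of the list, with 27 and 17 (-0.96, -1.94 to -0.05). Their promoters had a median of 64.8% GC, and with the GC correction 12 were lower in p400 and 2 in Tip60, beside 37.8% and 23.2% of all rows.

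Of 14 amino acid sensing genes of the mTORC1 pathway, 8 were lower in Tip60 and 8 in p400, with median log2 ratios of -0.74 and -0.89, and with the GC correction 5 and 7. Each 8 of 14 is 57.1%, beside 32.6% and 43.8% of all rows, and the corrected 5 and 7 stand beside 23.2% and 37.8%. With 20 or more reads upon GFP KD, 7 of 7 were lower in Tip60, beside 53.2%, and 7 of 12 in p400, or 58.3% beside 67.0%. *Mlst8*, a subunit of mTORC1, had 39 and 17 p400 reads (-1.48, -2.42 to -0.65), and *Rraga*, a Rag GTPase that recruits it to lysosomes, 61 and 28 (-1.42, -2.13 to -0.77). *Rptor* had 12 and 24 (0.66, -0.37 to 1.82).

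**Figure D4:**
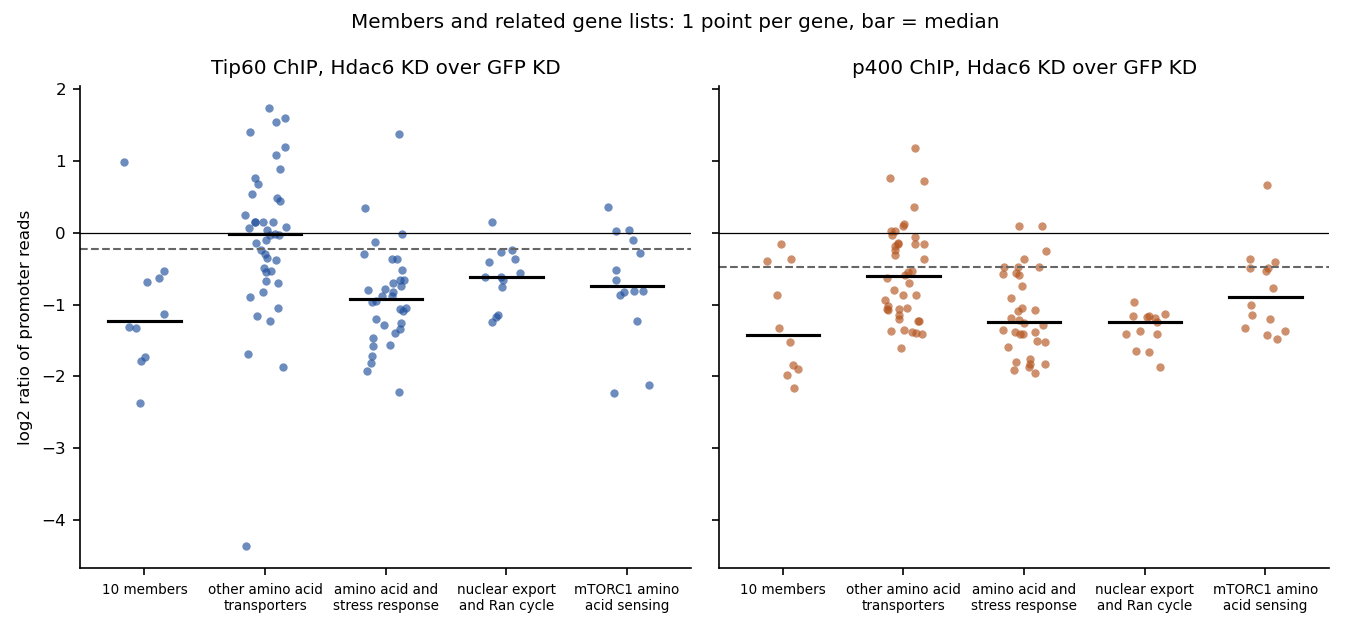
Log2 ratio of promoter reads upon Hdac6 KD over GFP KD (y axis) for the 10 members and 4 related gene lists (x axis), in Tip60 and p400. Each point is a gene, bars are medians and the dashed line is the median of all rows. The medians of the members (-1.22 and -1.42) and of the stress response list (-0.92 and -1.24) lie below the line, that of the other transporters in Tip60 (-0.02) above it, and the lowest point is *Slc6a14*, with 11 and 0 reads.

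Across the 7 samples, the genes nearest to *Slc7a1* among 17688 others, by Euclidean distance of log2 RPM with 0.5 reads added, were *Snx5* (0.71), *8430406I07Rik* (0.75) and *Psat1* (0.91). *Snx5* had 67 and 31 Tip60 reads and 74 and 21 p400 reads upon GFP KD and Hdac6 KD, and *8430406I07Rik* 72 and 34, and 72 and 21. The genes nearest to *Xpot* were *Sfrs6* (0.85), *Ncapd2* (0.90) and *Rps27l* (1.05), with Tip60 reads of 53 and 18, 48 and 16, and 56 and 22. The p400 ratios of all 6 neighbours lay between -2.10 and -1.91. *Slc7a1* and *Xpot* were each chosen for this pattern, so the likeness is a description over 7 single samples.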

How the data were processed

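ChIP-seq libraries of 7 ESC samples were examined, 1 per condition. Per the methods of the authors, reads (CASAVA 1.8.2) were mapped to mm9 with Bowtie, extended, freed of simple repeats, normalized and binned every 20 bp around TSSs, and repeat reads were kept. The deposited values are signal (coverage in ppm) from -2000 to 2000 bp of each TSS. All values (100%) were whole multiples of the value of 1 read in their library (tolerance 0.01 of a read). Isolated reads spanned 299 bp in 5 libraries and 148 and 149 bp in the Hdac6 libraries. The normalization and the list of TSSs are not given in the sources used here. Positions fit mm9, where 40.4% of rows lie exactly at an annotated start.

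Reads per promoter are the coverage summed from -500 to 500 bp, divided by the value and span of 1 read and rounded. Ratios use the normalizing reads implied by that value, with 0.5 reads added, and RPM are reads scaled by them. Only Hdac6 ChIP upon Tip60 KD was tested, by an exact binomial test of its reads given the sum of both libraries (two-sided), adjusted after Benjamini-Hochberg over 36733 rows. On simulated reads of this depth, with known changes in rows of 10 or more reads, the test missed most of them, also those of several-fold. The test takes reads as independent, although repeats were kept. The GC correction divides a ratio by that of windows 1500 to 2000 bp from TSSs with like GC content. Bins were 2.5% wide from 35 to 65% GC, with 1 wider bin at each end. *Xpot* (67.0% GC) and *Slc7a5* (66.0%) fall in the upper end bin. For genes with several rows, the RefSeq row with the lowest accession stands for the gene, and for rows that share one, the most 5′ start. Named list genes are the 2 with the lowest and the 1 with the highest p400 ratio among those with 10 or more p400 reads upon GFP KD, and for *Slc7a1* and *Xpot* the 3 nearest genes across samples. The 10 genes and all lists were chosen with earlier results of these data known. Of the lists, 42 of 45, 34 of 36, 13 of 14 and 14 of 18 genes (transporters, stress response, export, mTORC1) were found by symbol. Alternatives were other windows, equal totals, GC correction, 2 reads added, subtraction of flank signal, all RefSeq rows, a fold of 2 and a minimum of 10 reads for the test, and, chosen after seeing the data, the downstream starts of *Slc7a1* and *Slc3a2*, the rows with 20 or more reads as background and the largest stack counted once. Python 3.11.15, numpy 2.4.6, scipy 1.17.1, pandas 2.3.3 and matplotlib 3.10.9 were used.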

Additional observations from a re-analysis of the deposited data

Results flagged for a closer look

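At *Atf4* the Tip60 and p400 ratios upon Hdac6 KD had opposite signs. The Tip60 log2 ratio was 0.99 and the p400 log2 ratio -1.83, each from 1 pair of samples, and the difference between them was not tested. Tip60 upon GFP KD was not above the untagged control there, with 20 and 27 reads and a ratio of 0.803 per normalizing read. Among the 10 genes *Atf4* was the one with a Tip60 ratio above 0.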

How the results depend on the processing

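No paired analysis was possible because each condition has 1 sample, and for the same reason no replicate could be left out. Reads per promoter limit what a single gene can show. The members' median log2 ratio stayed below 0 under every alternative run for Tip60 (-0.83 with the wider window to -2.12 with flank signal subtracted) and p400 (-0.88 with the upstream window to -1.97 with flank signal subtracted) upon Hdac6 KD. The median of all rows was itself below 0 in most of these settings, from -0.29 (downstream window) to 0.02 (GC correction) in Tip60 and from -1.24 (flank signal subtracted) to -0.20 (equal totals) in p400. Subtraction of flank signal gave no value for 5 genes in Tip60 (*Slc7a5*, *Slc3a2*, *Slc1a4*, *Slc1a5* and *Xpot*) and for *Xpot* in p400. With it, 4 of 5 genes were lower in Tip60, and 1 of 9 was higher in p400. The 1 gene higher in Tip60, *Atf4*, was not called with the upstream window or a fold of 2 (0 genes higher in both). With the downstream starts of *Slc7a1* and *Slc3a2*, chosen after seeing the data, 7 genes were lower in Tip60 and 6 in p400. Of all rows 32.6% and 43.8% were lower. For Hdac6 upon Tip60 KD the counts depended most on the setting. Genes lower numbered 0 with the wider window, 2 reads added or a fold of 2, 1 with the downstream window, 4 with the upstream window and 5 with flank signal subtracted. Genes higher numbered 1 with the narrower window, the upstream window or the largest stack counted once, 2 with the downstream window and 3 with flank signal subtracted. For settings that change the window, the reads or the fold, the share of all rows called is not given here. The numbers of genes under them, in Tip60 and p400 as well, therefore have no background to be read against. Rows with an adjusted p under 0.05 numbered 4 with the wider window. Among genes past 1.5-fold, the sign was opposite for *Slc1a5* in Tip60 with the upstream window (0.36) and for *Slc7a5* in Hdac6 with the downstream window (0.18). Counting also genes within 1.5-fold, 26 of 315 values of single promoters had the opposite sign, 17 of them in Hdac6, 6 in p400 and 3 in Tip60. *Slc7a5* was among them with the GC correction, at 0.04 in Tip60 and 0.15 in p400. The cause was not tested. Of the 315 values, 296 stayed within their counting interval. The values of *Slc1a5* (0.36) and *Slc7a5* (0.18) with the opposite sign lay within theirs too but are not counted in the 296.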
